A study of Mus musculus with 92 samples.

Results

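Ly6a, Ly6c1, Ly6d, Ly6e, Psca, Lypd3 and Lypd8 belong to the Ly6/uPAR family of small cell surface proteins, and their RNA was followed in 92 mouse intestinal libraries. The 7 genes were selected by symbol among the 54532 genes of each of 4 count tables. They were chosen with results of these libraries known: the rises of Ly6d, Psca and Ly6a under A-485, a small molecule that blocks the acetyltransferase activity of p300 and CBP, had been seen in organoids. The A-485 values are therefore given as a description, with no test.

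The tissue libraries came from crypts and villi of mice in which loxP-flanked Eif4g2 was deleted by tamoxifen-activated CreER, after 4 daily injections of 100 mg/kg. Rosa26(CreER) mice, whose driver is active in most cell types, were Eif4g2(flox/flox) (homozygous, 4 crypt and 5 villus libraries) or Eif4g2(flox/+) (heterozygous, 5 and 5) and were sampled on day 9. Vil1(CreER) mice, whose driver is active in intestinal epithelium, gave 3 homozygous and 4 heterozygous crypt libraries and 6 and 4 villus libraries at 3 months. Small intestinal organoids, cultures of adult epithelium, all carried Rosa26(CreER). A first set of 3 Eif4g2(flox/flox) lines received DMSO or 0.5 µM 4-hydroxytamoxifen (4-OHT, which activates CreER) for 24 h. Every line of the second set received 4-OHT, and 4 of them were Eif4g2(+/+), called CreER only, beside 4 flox/+ and 4 flox/flox lines. Fetal intestinal spheroids, 6 flox/flox and 5 flox/+ lines with Rosa26(CreER), each received DMSO and 4-OHT. These cultures were collected on day 6. The A-485 series had 4 organoid lines with Rosa26(CreER), 1 Eif4g2(+/+) and 3 flox/flox not given 4-OHT, each with DMSO and 3, 5 and 10 µM A-485 for 4 days. The labels give no ages of the mice.

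Members of this family fold into a compact disulfide-bonded domain, and most are tethered to the outer membrane by a glycosylphosphatidylinositol (GPI) anchor. Ly6a, also called Sca-1, marks fetal-like and regenerating intestinal epithelium, and Lypd8 is secreted by enterocytes and keeps flagellated bacteria away from the mucosa. Ly6d is known from lymphoid progenitors and stratified epithelia, Psca from prostate, bladder and stomach epithelium, Ly6c1 from monocytes and endothelium, and Lypd3 from stratified squamous epithelium. Ly6e is an interferon-inducible member that restricts entry of some viruses.

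In the GRCm38 coordinates of the tables, 5 of the 7 genes lie within 334 kb of chromosome 15, in the order Psca, Ly6d, Ly6e, Ly6a and Ly6c1. Psca (ENSMUSG00000022598) spans 74714839 to 74717069 on the plus strand and Ly6d (ENSMUSG00000034634) 74762056 to 74763620 on the minus strand. Ly6e (ENSMUSG00000022587) spans 74955051 to 74959905 (plus), Ly6a (ENSMUSG00000075602) 74994877 to 74998031 (minus) and Ly6c1 (ENSMUSG00000079018) 75044018 to 75048830 (minus). Lypd3 (ENSMUSG00000057454) lies on chromosome 7 from 24636550 to 24641118, overlapping Gm26550 on the opposite strand. Lypd8 (ENSMUSG00000013643) lies on chromosome 11 from 58379043 to 58390728. Ly6a and Ly6c1 have near-identical paralogs, so reads could have been divided among copies. The nearest copy of Ly6c1, Ly6c2, had a mean of at most 0.0145 CPM (counts scaled by TMM to a common library size) in every culture group.

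The sequences before the start sites of Ly6c1 and Lypd8 are shown because these members were called in more than 1 comparison of Eif4g2 deletion. They are RefSeq promoters of GRCm38.p6, 250 bases before the start and 5′ to 3′ on the gene's strand, with the last 50 bases in capitals.
Ly6c1 (chr15:75048838-75049087, minus strand): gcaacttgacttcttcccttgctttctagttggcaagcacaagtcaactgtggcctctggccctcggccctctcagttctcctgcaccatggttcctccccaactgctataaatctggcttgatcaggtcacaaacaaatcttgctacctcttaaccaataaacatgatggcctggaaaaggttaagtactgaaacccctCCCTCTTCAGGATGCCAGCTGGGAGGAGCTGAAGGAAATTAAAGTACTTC
Lypd8 (chr11:58378782-58379031, plus strand): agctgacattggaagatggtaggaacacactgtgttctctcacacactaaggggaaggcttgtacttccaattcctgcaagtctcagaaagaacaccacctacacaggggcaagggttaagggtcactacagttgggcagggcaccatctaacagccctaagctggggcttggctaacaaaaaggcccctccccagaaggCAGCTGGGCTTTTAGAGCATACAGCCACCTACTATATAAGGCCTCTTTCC
Of the 7 members, Ly6c1, Lypd3 and Lypd8 matched an entry. Windows of 300 bases (these and 50 bases after the start) were searched on both strands for 5 motifs: TTCNNNGAA (STAT), TGANTCA (AP-1), GGAATG (TEAD), TTTATG (CDX2) and CAAAGT (HNF4A). None of the 3 windows held any of them. Among all 32851 windows of that length the shares with a match were 8.3%, 7.81%, 14.7%, 11.9% and 14.4%, in the same order.

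Depth ran from 8652040 to 37611126 counts per library, and 92 of 92 libraries were used. Eif4g2, the deleted gene, had 86.5 ± 14.3 CPM (SD, n = 4) in homozygous and 356 ± 9.03 (n = 5) in heterozygous Rosa26(CreER) crypts, and 127 ± 48.4 against 898 ± 163 (n = 6 each) in flox/flox spheroids with 4-OHT and DMSO. The reduction was smaller in Vil1(CreER) mice, with 230 to 244 CPM in homozygous and 478 to 498 in heterozygous crypts, and 127 to 178 and 356 to 454 in villi. No library with deletion of both copies overlapped its controls. In culture, 18 lymphocyte genes summed to at most 2.44 CPM in any library, with Cd3g, Nkg7 and Gzmb at 0 reads in most groups. In tissue the same sum ran from 160.6 to 1860 CPM, so tissue values mix epithelium with other cells. Genes of the mitochondrial genome held 13.71 to 25.17% of counts in homozygous and 6.243 to 12.36% in heterozygous Rosa26(CreER) crypts. In Vil1(CreER) crypts the shares were 30.41 to 40.29% and 17.5 to 30.78%, and in villi of both drivers the genotypes overlapped. The part of this difference in the genotype comparisons was not tested. In these bulk samples fewer cells of a type and less RNA per cell cannot be told apart.

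Per kilobase of gene length, Lypd8 was the most abundant member in 17 of the 21 groups, and Ly6a in the other 4 (10 µM A-485, both flox/+ spheroid groups and flox/flox spheroids with 4-OHT). In DMSO-treated organoids of the A-485 series the mean levels were 1041 CPM per kb for Lypd8, 53.0 for Ly6e, 15.7 for Ly6a and 1.18 for Ly6c1. Ly6d and Psca had 0.857 and 0.617 CPM per kb. Lypd3 stayed below 1.33 CPM in every library of this table and was too low to be tested in most comparisons.

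**Figure D1:**
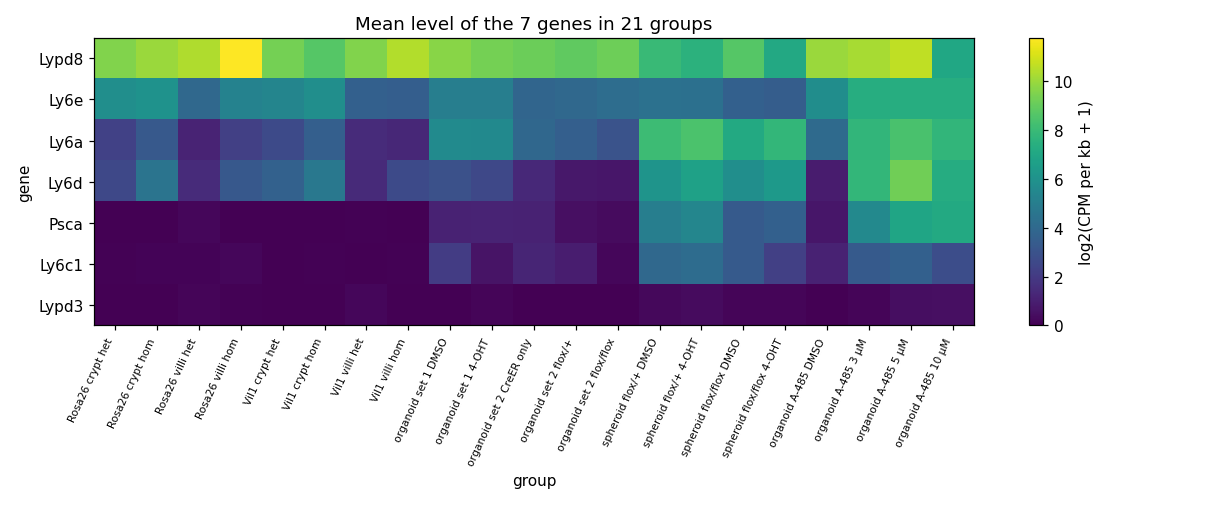
Mean level of the 7 genes (rows) in the 21 groups (columns) as log2(CPM per kb + 1); the 4 tables were scaled separately, so a difference between tables also holds the difference in scaling. Ly6d, Psca, Ly6a and Ly6c1 are darker in untreated organoids than in fetal spheroids and under A-485, and Lypd8 is bright in most groups.

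With A-485, Ly6d, Psca, Ly6a, Ly6c1 and Ly6e were higher than with DMSO at every dose and in every line, while Lypd8 was lower at 10 µM alone. Ly6d had 1.46, 0.239, 0 and 0.856 CPM with DMSO in lines S6026, S6070, S6074 and S6076. At 3 µM the same lines had 293, 198, 97 and 73.1 CPM, at 5 µM 474, 450, 329 and 551, and at 10 µM 108, 118, 99.9 and 142. The highest dose thus lay below the middle one in all 4 lines, and each dose lay above DMSO without overlap.

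Psca had 0.766, 1.19, 0.163 and 0 CPM with DMSO. It had 66.1, 47.5, 20.1 and 22.2 CPM at 3 µM, 115, 104, 75.6 and 124 at 5 µM, and 141, 157, 106 and 91.1 at 10 µM. Unlike Ly6d, it was higher at 10 than at 5 µM in 3 of the 4 lines. The fitted log2 fold changes against DMSO were 7.96, 9.42 and 7.47 for Ly6d and 6.16, 7.59 and 7.82 for Psca at 3, 5 and 10 µM. Both start from under 2 CPM, so the sizes of these fold changes rest on few reads, 0 to 19 per DMSO library for Ly6d and 0 to 15 for Psca.

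Ly6a was already present with DMSO, at 28.8, 15.4, 15.9 and 15.3 CPM. It had 339, 256, 137 and 306 CPM at 3 µM, 417, 446, 233 and 548 at 5 µM, and 249, 319, 245 and 238 at 10 µM. Its log2 fold changes were 3.77, 4.44 and 3.79. Ly6c1, its neighbour on chromosome 15, had 1.38, 2.95, 2.12 and 1.48 CPM with DMSO and 10.6 to 21.3, 9.12 to 24.7 and 6.04 to 15.2 CPM with rising dose. Its log2 fold changes were 2.94, 3.24 and 2.32, and no dose overlapped DMSO.

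Ly6e differed from these by a flat response. It had 115, 209, 191 and 287 CPM with DMSO, and group means of 606 ± 119, 613 ± 158 and 619 ± 165 CPM (SD, n = 4 each) at the 3 doses. Its log2 fold changes were 1.59, 1.61 and 1.63, and the doses overlapped each other. Lypd8 had 1122, 1646, 1312 and 1267 CPM with DMSO, 1422 to 1622 at 3 µM, 1667 to 2769 at 5 µM and 136, 192, 221 and 104 at 10 µM. Its log2 fold changes were 0.19, 0.62 and -3.04.

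Of the 6 members that passed the filter on low counts, 5 did not overlap DMSO at 3 µM, all of them higher, where 26.8% of all genes did not overlap. At 5 µM it was 6 members, all higher, against 51.9% of genes. At 10 µM 5 were higher and 1 lower, against 62.4%. These libraries chose the members, so nothing is read from the counts. The 20 enterocyte genes summed to 8817 to 16980 CPM with DMSO (median 13380) and 505.5 to 998.6 CPM at 10 µM. Unlike Lypd8, their sum had lower medians already at 3 µM (7144 CPM, 4023 to 9067) and 5 µM (5981 CPM, 3431 to 8326). Their part in the level of Lypd8 was not tested.

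**Figure D2:**
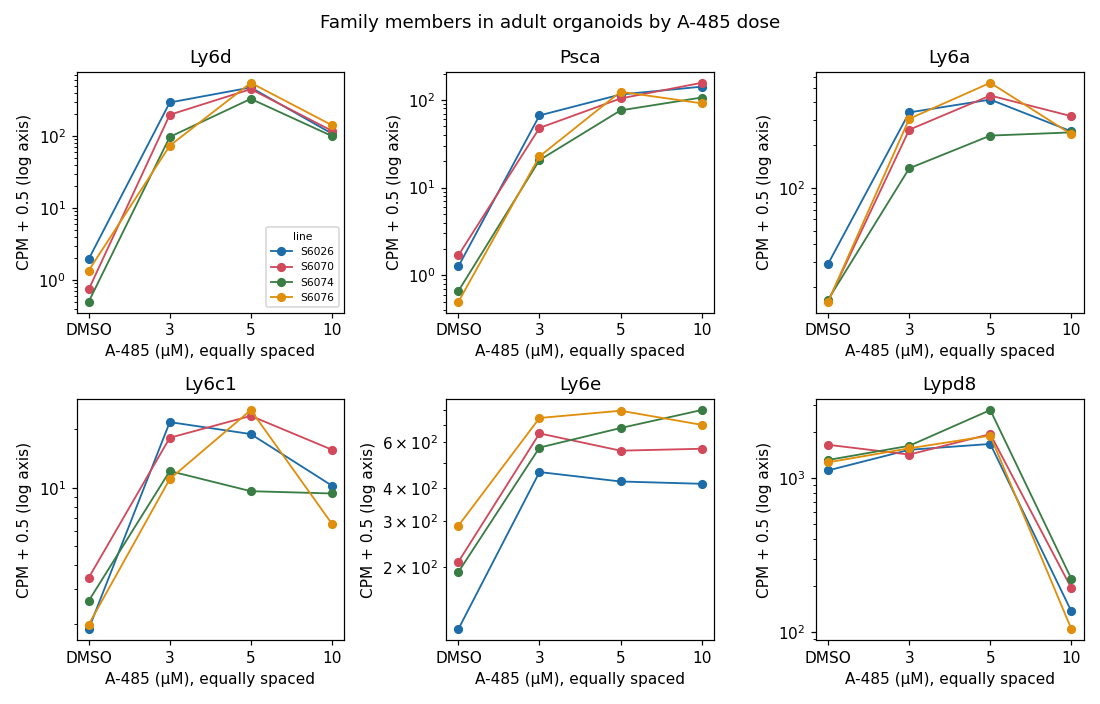
CPM + 0.5 on log axes against A-485 dose for 6 members, 1 coloured line per organoid line. All 4 lines rise from DMSO to 3 µM for Ly6d, Psca, Ly6a, Ly6c1 and Ly6e, and all 4 fall for Lypd8 between 5 and 10 µM.

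Other genes of the family, from a list of 40 names of which 34 were in the tables, were read in the same libraries. Of the 8 that passed the filter, 4, 5 and 5 were higher than DMSO without overlap at 3, 5 and 10 µM, and 0, 0 and 2 lower. The shares of all genes without overlap in either direction were 26.8%, 51.9% and 62.4%. The median log2 fold changes were 2.44, 4.07 and 3.16, beside -0.05 to 0.00 over all genes. Lynx1, which modulates nicotinic acetylcholine receptors, had means of 1.57, 18.7, 51.2 and 45.4 CPM with DMSO and the 3 doses. Plaur, the urokinase receptor, had 8.54, 41.5, 96.3 and 193 CPM. Gml had 0.314, 5.72, 17 and 11.4 CPM. Among 29 tested interferon-response genes, 9, 22 and 21 were higher without overlap at the 3 doses and 1, 2 and 1 lower, beside the same shares of all genes. The lists were chosen with results of these data known, so nothing is read from these counts.

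Fetal spheroids had more Ly6a RNA than adult organoids, both with 4-OHT, and in flox/+ cultures more Ly6c1. Values of Ly6d and Psca were higher, whereas Ly6e and Lypd8 did not pass the test. In flox/+ cultures Ly6d had 0.801, 0.338, 0.368 and 0.582 CPM in the 4 organoid lines and 14.3 to 125 CPM (median 85.7) in the 5 spheroid lines. The groups did not overlap, and the fitted log2 fold change was 7.22 ± 0.89 (SE). Psca had 0.185 to 0.582 CPM in organoids and 3.47, 7.41, 32.5, 37.8 and 94.6 in spheroids (6.58 ± 1.19). Only 2 (Ly6d) and 1 (Psca) of the flox/+ organoid libraries lay above the filter on low counts, so both genes entered the fit through the spheroids, where they are high, and had to differ. Their values are therefore a description.

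Ly6a had 14.2, 10.9, 16.5 and 10.2 CPM in flox/+ organoids and 78.9, 250, 483, 490 and 789 in flox/+ spheroids. Its log2 fold change was 5.02 ± 0.87 (SE; edgeR quasi-likelihood test, adjusted p = 0.000303), with no overlap. Ly6c1 had 1.05 to 2.21 CPM against 4.63 to 43.8 CPM (4.19 ± 0.76, edgeR adjusted p = 0.00034). Ly6e gave 0.39 ± 0.54 (edgeR adjusted p = 0.601) and Lypd8 -1.36 ± 0.82 (0.206). The fit called 4 of 6 tested members, Ly6d and Psca among them, beside 39.1% of all genes, and with that filter nothing is read from the count. Stromal genes were also higher: 12 of them summed to 4.535 to 181.5 CPM in flox/+ spheroids and 0.6301 to 2.219 in flox/+ organoids, where Dcn, Col3a1 and Lum had 0 reads. Of 5 stromal genes tested 3 were higher (median 7.66), and their part in these differences was not tested.

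In flox/flox cultures with 4-OHT the same 4 members were called, 4 of 6 beside 31.9% of all genes, and nothing is read from this count. By the edgeR test the log2 fold change of Ly6a was 4.95 (adjusted p = 0.000459). Ly6c1, Ly6d and Psca lay above the filter in 1, 2 and 0 of the 4 flox/flox organoid libraries. They gave 4.48, 6.90 and 5.42 as a description. Stromal genes summed to 0 to 7.591 CPM in flox/flox spheroids and 2.085 to 2.882 in the organoids, and 0 of 5 tested were called (median 2.83). Ly6e gave -0.81 (edgeR adjusted p = 0.244) and Lypd8 -2.08 (0.0538). The flox/flox organoid lines fell apart: S8872 and S8876 had 13.2 and 26.1 CPM of Ly6e, and S9309 and S9310 had 73.4 and 152. With the last pair alone Psca was not called (4.81, edgeR adjusted p = 0.0649) and Ly6e was called lower in spheroids (-1.58, 0.0232).

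The fetal-adult difference itself was compared between genotypes, and 0 of 6 members were called, beside 0.0532% of genes. At an unadjusted p under 0.05 the edgeR test had 0 members, and DESeq2 called 0. Fetal origin and culture line cannot be told apart, since no line is in both groups. Of 13 other family genes tested, 11 were higher in flox/+ spheroids and 0 lower (median 2.92, 0.02 over all genes), and 6 were higher in flox/flox spheroids. The shares of all genes called in either direction were 39.1% and 31.9%. Lynx1 rose by 4.13 (edgeR adjusted p = 5.03e-06) in flox/+ and 3.55 (2.07e-05) in flox/flox spheroids. Of 19 fetal-like genes, Ly6a among them, 17 and 18 were higher and 0 and 1 lower. Both lists were chosen with results of these data known, so nothing is read from their counts.

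**Figure D3:**
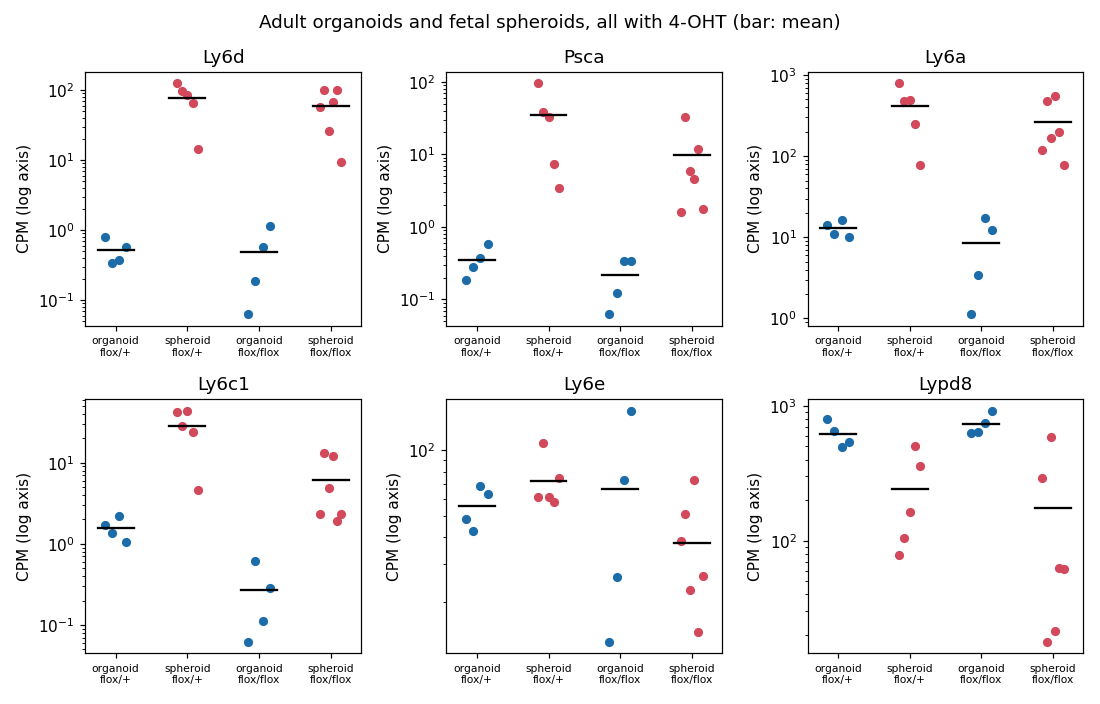
CPM on log axes of 6 members in adult organoids and fetal spheroids, all with 4-OHT; points are libraries, 1 line each, and bars are means. Spheroids sit above organoids without overlap for Ly6d, Psca, Ly6a and Ly6c1 in both genotypes.

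Ly6c1 was lower after Eif4g2 deletion in each culture set. Its values in the second organoid set are a description, and in spheroids the call within lines needed line as a block. In the first organoid set lines S6070, S6072 and S2080 had 7.60, 6.00 and 2.56 CPM with DMSO and 1.55, 1.01 and 0.152 with 4-OHT. The level was lower in 3 of 3 lines, without overlap (log2 fold change -2.60 ± 0.69, edgeR adjusted p = 0.0247). Ly6c1 was the 1 of 6 tested members called, beside 35.4% of all genes. The call was lost without S6070 with DMSO (-2.27, edgeR adjusted p = 0.083) or S6072 with DMSO or 4-OHT (-2.52, 0.0694, and -2.70, 0.0697). Lypd8 had 1030, 894 and 1241 CPM with DMSO and 686, 827 and 936 with 4-OHT (-0.39 ± 0.16, edgeR adjusted p = 0.105), and with line as a block the edgeR adjusted p was 0.030.

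In the second set Ly6c1 had 2.87, 2.81, 0.824 and 2.19 CPM in CreER only, 1.73, 1.35, 2.21 and 1.05 in flox/+ and 0.0626, 0.621, 0.113 and 0.283 in flox/flox organoids. Flox/flox lay below both other groups, with 1 to 10 reads per library. Against flox/+ the log2 fold change was -2.53 ± 0.55, and the fit called 1 of 6 members beside 46.8% of all genes. Against CreER only it was -2.97 ± 0.54, and the fit called 2 of 6 beside 45.3%. The second was Psca, with 1.82, 0.852, 0.954 and 0.355 CPM in CreER only and 0.0626, 0.124, 0.338 and 0.339 in flox/flox organoids (-2.13 ± 0.57). Every flox/flox value lay below the lowest CreER only value. With lines S9309 and S9310 alone Psca was not called (-1.51, edgeR adjusted p = 0.081). Ly6e was then called higher against flox/+ (1.03, edgeR adjusted p = 0.0311) and CreER only (1.18, 0.019). Flox/flox organoids lay under the filter in 3 of 4 libraries for Ly6c1 and in 4 of 4 for Psca. Both genes thus entered the fit through the other groups, where they are higher. Their values in this set are therefore a description, and nothing is read from these counts. Between flox/+ and CreER only 0 of 6 members were called, beside 0.113% of genes; at an unadjusted p under 0.05 edgeR had 1 member and DESeq2 called 0.

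Some genes of an endothelial list moved with Ly6c1, which endothelium expresses. Only 2 to 3 of the 12 listed genes had a mean over 1 CPM in any group of the 2 organoid sets. The sum of 12 such genes was 9.631 to 9.940 CPM with DMSO and 5.652 to 6.780 with 4-OHT in the first organoid set, where 2 of 4 tested fell (median -1.27). In the second set it was 11.16 to 13.60 CPM in flox/+, 12.14 to 15.19 in CreER only and 4.194 to 5.804 in flox/flox organoids, with 3 of 4 lower in both comparisons (medians -1.65 and -1.74). Cdh5 and Kdr had 0 reads in all 3 groups of the second set. The part of these genes in the Ly6c1 result was not tested.

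Flox/flox spheroids had less Ly6c1 with 4-OHT, line by line. With DMSO the 6 lines had 5.23, 26.1, 14.0, 33.0, 7.21 and 6.60 CPM, and with 4-OHT, in the same order, 2.31, 13.3, 4.87, 12, 1.91 and 2.36. The level was lower in 6 of 6 lines although the groups overlapped, because the lines differ from each other. Without a line term the log2 fold change was -1.32 ± 0.66 (edgeR adjusted p = 0.18). With line as a block it was -1.42 ± 0.16 (edgeR adjusted p = 0.000497).

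In the 5 flox/+ spheroid lines Ly6c1 had 34.9, 27.8, 49.2, 8.79 and 4.05 CPM with DMSO and 42.7, 28.6, 43.8, 23.8 and 4.63 with 4-OHT. It was higher in 4 of 5 lines, and the log2 fold change was 0.19 ± 0.71 (edgeR adjusted p = 1). The effect of 4-OHT differed between genotypes by -1.51 (edgeR adjusted p = 0.54) without and by -1.76 (0.000922) with line as a block. Between the genotypes with 4-OHT the log2 fold change was -2.22 ± 0.70 (edgeR adjusted p = 0.0467), 1 of 7 members beside 10.5% of genes, a call lost in 8 of 11 fits that left out a library, all but those without S9488-F, S9488-D or S9020-C (edgeR adjusted p of up to 0.101). Stromal genes were lower too (3 of 7 tested, median -4.15), as was 1 of 5 endothelial genes (median -1.39). The endothelial sum was 4.254 to 11.17 CPM in flox/flox and 8.890 to 22.14 in flox/+ spheroids with 4-OHT, and 6.709 to 15.48 in flox/flox spheroids with DMSO. Their part was not tested. Lines of the 2 genotypes share name stems (S9488 and S9020), whose meaning the labels do not give. Stems also recur within a genotype, S9484 and S9488 in flox/flox and S9612 in flox/+ lines. Each line was counted as a replicate.

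With line as a block, Ly6a and Lypd8 also passed in flox/flox spheroids. Ly6a had 72.4, 333, 83.2, 353, 81.9 and 106 CPM with DMSO and 120, 474, 169, 557, 198 and 77.0 with 4-OHT, higher in 5 of 6 lines (0.62, edgeR adjusted p = 0.0415). Lypd8 had 212 to 1148 CPM with DMSO and 17.8, 21.3, 61.7, 62.4, 292 and 587 with 4-OHT, lower in 5 of 6 lines (-2.59, edgeR adjusted p = 0.0356). The 20 enterocyte genes moved alongside, from a median sum of 5934 to 346.5 CPM, and their part in the change of Lypd8 was not tested. In flox/+ spheroids 4-OHT went with higher Ly6a in 4 of 5 lines (mean log2 difference by line 0.43, beside 0.62 in flox/flox) and lower Lypd8 in 4 of 5 (-0.45, beside -2.47). With line as a block the effect of 4-OHT differed between genotypes by 0.20 for Ly6a (edgeR adjusted p = 0.656) and by -2.12 for Lypd8 (0.107), so neither was shown to differ. Without the block 0 of 7 members were called in flox/flox spheroids, beside 19.1% of all genes (1 member at an unadjusted p under 0.05, 0 by DESeq2). With the block it was 3 of 7, beside 34.6% of all genes.

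Psca, Ly6d, Ly6e and Lypd3 passed neither fit in flox/flox spheroids. In flox/+ spheroids 4-OHT called 0 of 7 members and 0% of genes, and between genotypes with DMSO it was again 0 of 7 and 0%. At an unadjusted p under 0.05 edgeR had 0 members in the first of these and 1 in the second, and DESeq2 called 0 in both. The interaction of 4-OHT with genotype, without the block, called 0 of 7 members beside 1.62% of genes, with 0 members at an unadjusted p under 0.05 and 0 called by DESeq2.

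**Figure D4:**
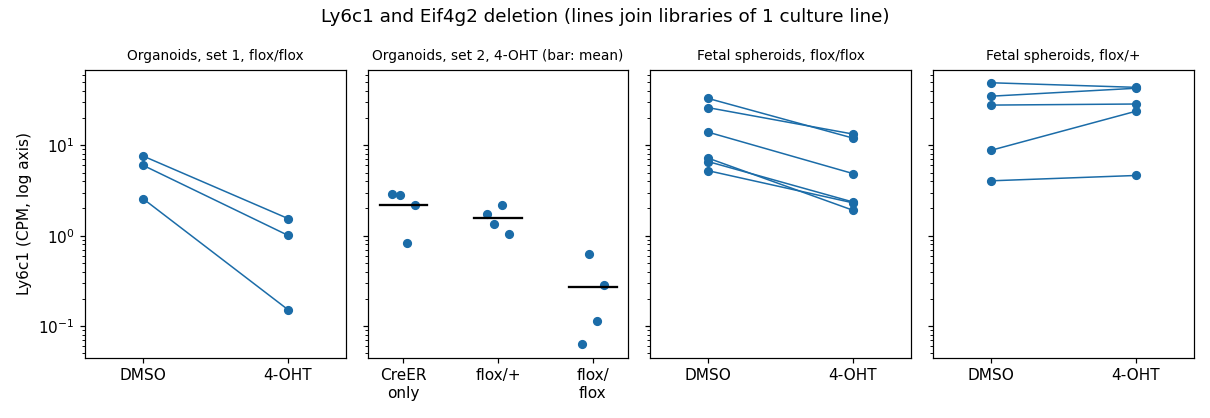
Ly6c1 in CPM on a log axis; joined points are 1 culture line with DMSO and 4-OHT, and in the second panel points are lines and bars are means. All 3 organoid and all 6 flox/flox spheroid lines fall with 4-OHT, while 4 of 5 flox/+ spheroid lines do not.

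Other family genes moved in these cultures in both directions. Plaur rose by 2.24 in the first organoid set (edgeR adjusted p = 0.00138), 1.83 in flox/flox spheroids (0.00745) and 1.28 between flox/flox and flox/+ organoids of the second set (0.00219). Lypd6, which enhances Wnt signalling, fell by 2.29 in flox/flox against flox/+ organoids (edgeR adjusted p = 0.00244). In flox/flox spheroids it gave -5.16, from a mean of 5.84 to 0.159 CPM, and the effect of 4-OHT differed between spheroid genotypes by -4.58. The flox/flox mean with 4-OHT lay under the filter on low counts. Lypd6 thus entered this fit through the other spheroid groups, where it is higher, and its spheroid values are a description. Of 14 other family genes tested in flox/flox spheroids, 2 rose and 4 fell, Lypd6 among the latter, beside 19.1% of all genes called in either direction. Their median was -0.77 beside -0.02 over all genes, and nothing is read from the count. Of the 26 GPI anchor synthesis genes, 2 rose and 2 fell there, with a median of -0.04.

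In tissue, Ly6c1, Psca and Lypd3 were at or near 0, each under 0.55 CPM in every library, and 4 members could be tested. Along the crypt-villus axis of heterozygous mice, Ly6e and Ly6a were higher in crypts, in fits without a term for the animal. Ly6e had 145 to 287 CPM (median 185) in Rosa26(CreER) crypts and 39.0 to 82.4 (median 50.7) in villi, higher in 5 of 5 animals (1.82 ± 0.24, edgeR adjusted p = 2.18e-05). In Vil1(CreER) mice it had 120, 198, 155 and 127 CPM in crypts and 39.3, 38.8, 53.6 and 41.4 in villi (1.78 ± 0.19, edgeR adjusted p = 1.75e-05).

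Ly6a was lower, at 1.70 to 8.11 CPM in Rosa26(CreER) crypts and 0.760 to 3.25 in villi (1.48 ± 0.57, edgeR adjusted p = 0.0324), and overlapped. In Vil1(CreER) mice it gave 1.64 ± 0.60 (edgeR adjusted p = 0.0365). The first call was lost without villi of animals 6135, 6947 or 6948 or crypts of 6134 or 6947, with edgeR adjusted p up to 0.0888, and the second without any single villus library or the crypts of 8977, up to 0.0945. After TMM scaling Lypd8 went the other way in Rosa26(CreER) mice, with 729 to 1192 CPM in crypts and 1348 to 2175 in villi (-0.89 ± 0.17, edgeR adjusted p = 0.000403), and gave -0.27 ± 0.26 (0.36) in Vil1(CreER) mice. Scaled to the library total instead, its means were 1353 in crypts and 1289 in villi with Rosa26(CreER), and 1004 and 789 with Vil1(CreER). The direction for Lypd8 thus depended on the scaling. The counts were 3 of 4 members beside 77.1% of genes and 2 of 4 beside 67.9%. The 20 enterocyte genes were all lower in crypts in both.

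Homozygous villi had more Lypd8. In Rosa26(CreER) villi it had 1348, 1452, 1696, 1925 and 2175 CPM in heterozygous and 1226, 3508, 3786, 6315 and 7774 in homozygous mice. All but 1 homozygous library lay above every heterozygous one (1.31 ± 0.39, edgeR adjusted p = 0.0245), and 1 of 4 members was called beside 33.2% of genes. The call was lost without animal 6135, 6948, 6950 or 6075 (edgeR adjusted p up to 0.0599). Ddx3y, a Y-linked gene, exceeded 1 CPM in 5 of 5 heterozygous and 2 of 5 homozygous villus libraries, so sex and genotype overlap. With a covariate for Y-linked transcripts Lypd8 gave 1.67 (edgeR adjusted p = 0.0305). The 20 enterocyte genes summed to 80560 to 114900 CPM in heterozygous and 94820 to 135600 in homozygous villi, and their part was not tested.

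Vil1(CreER) villi gave 658, 820, 1048 and 1333 CPM of Lypd8 in heterozygous and 964, 1225, 1594, 1697, 2264 and 2954 in homozygous mice. The groups overlapped (0.87 ± 0.29, edgeR adjusted p = 0.0295), 1 of 4 members beside 42.5% of genes, and the call was lost without animal 8977, 8980, 9057, 8974 or 8979 (edgeR adjusted p up to 0.0985). In Vil1(CreER) crypts Lypd8 was 529 to 1052 CPM in heterozygous and 438, 502 and 610 in homozygous mice (-0.59 ± 0.23, edgeR adjusted p = 0.0949). The genotype effect differed between crypts and villi by -1.48 ± 0.44 (edgeR adjusted p = 0.0331), 1 of 4 members beside 15.5% of genes. That call was lost in 7 of 17 fits that left out a library: villi of 8977 or 9057, or crypts of 8975, 8980, 9057, 8971 or 8974 (edgeR adjusted p up to 0.0876). In Rosa26(CreER) mice that difference called 0 of 4 beside 11.5% of genes, with 0 members at an unadjusted p under 0.05, 0 called by DESeq2, and Lypd8 at -0.89 (edgeR adjusted p = 0.274).

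Ly6d had higher means in all 4 homozygous tissue groups, none past the edgeR threshold. In Rosa26(CreER) crypts it had 0.460 to 7.76 CPM in heterozygous and 2.08, 12.5, 15.8 and 35.8 in homozygous mice (2.29 ± 0.85, edgeR adjusted p = 0.0848, DESeq2 0.0134). Ddx3y exceeded 1 CPM in 5 of 5 heterozygous and 1 of 4 homozygous crypt libraries of this driver, so sex and genotype overlap there as in its villi. The villi gave 2.14 ± 0.82 (edgeR adjusted p = 0.0691; DESeq2 0.00892) with Rosa26(CreER) and 1.71 ± 0.66 (edgeR 0.0536; DESeq2 0.0123) with Vil1(CreER). In Vil1(CreER) crypts the value was 1.17 ± 1.16 (edgeR adjusted p = 0.502). Lymphoid cells can carry Ly6d. Summed lymphocyte genes had medians of 798.7 CPM in homozygous (163.5 to 1510) and 331 in heterozygous (211.9 to 1080) Rosa26(CreER) crypts, and 1125 (976.7 to 1177) and 630.5 (235 to 1032) in Vil1(CreER) crypts. In villi the medians were 768 (519.4 to 850) and 738.5 (543.6 to 1860) with Rosa26(CreER), and 305.3 (160.6 to 555.7) and 1107 (706.8 to 1385) with Vil1(CreER). Gene by gene, 0 of 18 tested lymphocyte genes were called in Rosa26(CreER) crypts (median log2 fold change 0.83). In Vil1(CreER) crypts 1 of 18 was called higher and 0 lower (0.63), beside 20.2% and 29.3% of all genes. In villi 11 of 17 were called lower with Rosa26(CreER) (-1.265) and 12 of 18 with Vil1(CreER) (-2.01), and 0 higher, beside 33.2% and 42.5%. The part of lymphocytes in the Ly6d values was not tested.

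In crypts edgeR called 0 of 4 members in Rosa26(CreER) mice, beside 20.2% of genes, and 0 of 4 in Vil1(CreER) mice, beside 29.3%. At an unadjusted p under 0.05 there were 1 and 2 members, and DESeq2 called 1 and 2. Gml and Gml2, neighbours on chromosome 15, rose in homozygous villi of both drivers, Gml by 3.82 (edgeR adjusted p = 0.00767) and 3.49 (0.00333), and Gml2 by 3.54 (0.0141) and 4.34 (0.00039).

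**Figure D5:**
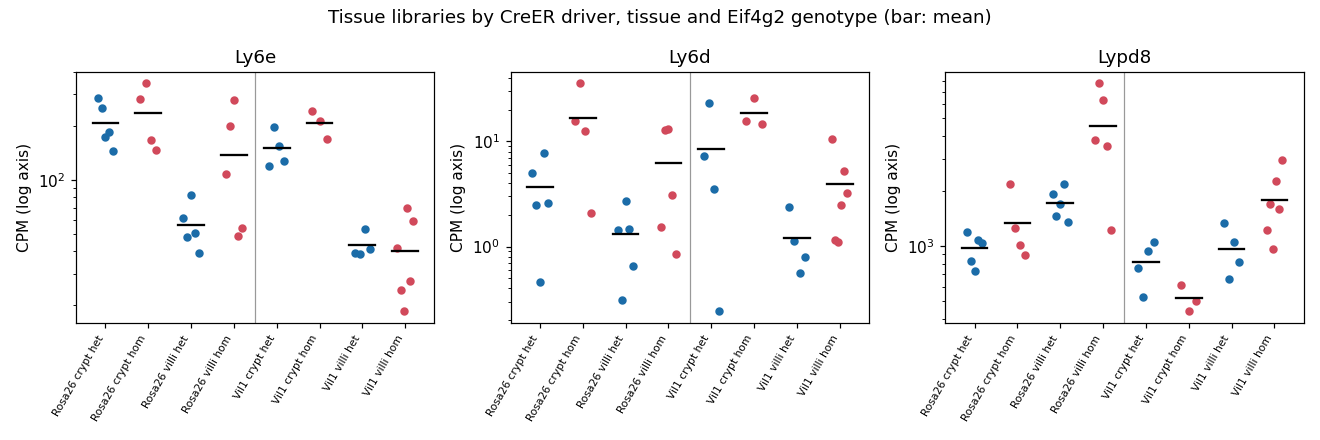
CPM on log axes of Ly6e, Ly6d and Lypd8 in the 8 tissue groups, heterozygous (het) in blue and homozygous (hom) in red; points are animals and bars are means. Ly6e is higher in crypts than villi of heterozygous mice, and Lypd8 is higher in homozygous than heterozygous villi with overlap.

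Across the 21 group means, on log2(CPM + 1) and over 16567 genes, the genes most like each member were ranked by Pearson's r. Ly6a was most like Mmp11 (0.973), Gulp1 (0.964) and Ripply3 (0.962), and Ly6c1 like Lrrc8e (0.945), Klk6 (0.94) and Mmp11 (0.939). For Psca they were Ahnak2 (0.967), Ntf5 (0.961) and Zbtb8b (0.958), and for Ly6d Lynx1 (0.924), Ttc8 (0.901) and Shisa5 (0.889). Ly6e was nearest Gm11425 (0.865), 2510009E07Rik (0.832) and Clca3a2 (0.827), and Lypd8 nearest 2210407C18Rik (0.91), Slc13a1 (0.862) and B3gnt7 (0.856). The points share lines, and the 4 tables were scaled separately, so r also holds differences between tables; these are descriptions. Within the 22 spheroid libraries, which share lines, r was 0.891 between Ly6a and Psca, 0.789 between Ly6a and Ly6c1, and -0.627 between Ly6a and Lypd8.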

How the data were processed

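Poly(A) RNA of 92 libraries was sequenced from dUTP-marked directional libraries. The 4 tables, as deposited, hold whole-number counts of each gene without normalization, and a gene length, per the file headers. Reads were aligned with HISAT2 2.0.5, named with GRCm38 (mm10) in the submitters' processing notes; the counting program, annotation and strand setting are not given in the sources used here. Counts were fitted in edgeR 4.0.16 under R 4.3.3: filterByExpr by group (minimum count 10), TMM scaling and the robust quasi-likelihood test, with p-values adjusted by Benjamini-Hochberg over every tested gene (threshold 0.05). Tissue comparisons and the first organoid set used their own groups. The second set, the spheroids and the fetal-adult comparison each used all their groups. CPM levels used TMM factors from the whole table a library is in. Log2 differences by line used CPM + 0.5.

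The members and gene lists were chosen with earlier results of these data known. A gene listed in the family in error (a lysozyme-like gene) was left out of the list after its values had been seen. Named genes are Eif4g2, the members, other family genes called in a comparison or reaching 5 CPM, of which a selection is given, and the 3 genes most like each member. Alternatives were DESeq2 1.42.0, its size factors, no filter, a replicate block, other sets of libraries, a covariate for Y-linked transcripts and leaving out each library. The fits with lines S9309 and S9310 only, without line S9020-A, and the block in differences between effects were chosen after the data were seen. Same-line libraries paired DMSO with 4-OHT (correlations 0.369 to 0.524 in the first organoid set, 0.406 to 0.809 in flox/flox and 0.664 to 0.894 in flox/+ spheroids). Crypt and villus libraries paired by animal. The main fits held no term for line or animal. Other groups share a number, and some spheroid lines a name stem, with no pairing stated. No 2 libraries of a group agreed within sampling noise. Scripts were tested on simulated data.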

Additional observations from a re-analysis of the deposited data

Results flagged for a closer look

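In 86 sets of a member and a group of 4 to 6 libraries, 3 had a library far from the others by Dixon's ratio, where chance gives about 1 in 20. Ly6a was 28.8 CPM in line S6026 with DMSO, against 15.3 to 15.9 in the other 3 lines; this is the Eif4g2(+/+) line. Ly6a was 319 CPM in line S6070 at 10 µM A-485, against 238 to 249 in the others. Psca was 33.1 CPM in the flox/flox spheroid line S9488-F with 4-OHT, against 1.61 to 11.7 in the other 5 lines.

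The effect of Eif4g2 genotype on Lypd8 differed between crypts and villi of Vil1(CreER) mice by -1.48 on the log2 scale (edgeR quasi-likelihood test, adjusted p = 0.0331), and by -1.43 with animal as a block. For Ly6c1, the effect of 4-OHT differed between flox/flox and flox/+ spheroids by -1.76 with line as a block (edgeR adjusted p = 0.000922), a fit added after the data were seen.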

How the results depend on the processing

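Of the members' log2 fold changes under alternatives other than a left-out library, 525 kept their direction and side of the threshold, 20 became called, 12 lost their call and 8 reversed; the reversed ones were uncalled before. With a single library or line left out, 1156 kept both, 20 became called, 37 lost the call, 85 reversed and 4 moved. With levels scaled to the library total instead of TMM, 142 group means of members stayed within their SD and 5 moved further. The causes were not tested. DESeq2 called 2 members in the first organoid set (38.4% of all genes); in homozygous against heterozygous tissue it called 1 in crypts (28.2%) and 3 in villi (37.8%) with Rosa26(CreER), and 2 in crypts (33%) and 2 in villi (45.8%) with Vil1(CreER), and a covariate for Y-linked transcripts gave 1 in Rosa26(CreER) crypts (17.2%). Without the filter on low counts 0 were called in Rosa26(CreER) villi, Vil1(CreER) villi, spheroid genotypes with 4-OHT and the Vil1(CreER) genotype by tissue difference, and 5 in Rosa26(CreER) crypts against villi. With only the 2 groups compared in the fit, 1 was called in flox/flox against CreER only organoids and 0 between spheroid genotypes with 4-OHT. With organoid lines S9309 and S9310 only, 2 were called against flox/+, where Ly6a was 0.21 and Ly6d 0.70.

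With the replicate block, 2 members were called in the first organoid set (43.3% of all genes), 3 in flox/flox spheroids (34.6%) and 1 in the 4-OHT by genotype difference (18.3%), where lines pair the samples. Where no pairing is stated, the block gave 0 in Rosa26(CreER) villi (31.2%), 1 in flox/flox against CreER only organoids (37.3%) and 0 between spheroid genotypes with 4-OHT (1.03%). There the block gave Ly6e -0.25 against flox/+ and -0.098 against CreER only organoids, and Ly6d 0.12 between spheroid genotypes with DMSO. With animal as the replicate block, the genotype by tissue difference was 0.65 for Ly6a and 0.58 for Ly6d with Rosa26(CreER), and 0.47 for Ly6d with Vil1(CreER).

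Leaving out single libraries gave 0 to 1 called members in crypts and 0 to 3 in villi with Rosa26(CreER), 0 to 3 in crypts and 0 to 2 in villi with Vil1(CreER), 1 to 3 in Vil1(CreER) crypts against villi, 0 to 2 in the first organoid set, 0 to 1 in flox/flox spheroids, 0 to 2 between spheroid genotypes with 4-OHT and 0 to 1 in the Vil1(CreER) genotype by tissue difference. The log2 fold changes that changed sign, all uncalled with every library, had these ranges. In tissue, Ly6e ran from -0.0076 to 0.46 in Rosa26(CreER) crypts and from -0.36 to 0.027 in Vil1(CreER) villi, where Ly6a ran from -0.46 to 0.045. The genotype by tissue difference ran from -1.14 to 0.45 for Ly6a and -0.74 to 0.46 for Ly6d with Rosa26(CreER), and from -1.11 to 0.64 for Ly6d with Vil1(CreER). In the first organoid set Ly6a ran from -0.67 to 0.31, Ly6d from -0.92 to 0.13, Ly6e from -0.44 to 0.24 and Psca from -0.13 to 0.27. In flox/flox organoids against flox/+, Ly6d ran from -0.89 to 0.27 and Ly6e from -0.56 to 0.59, and against CreER only Ly6e from -0.42 to 0.73 and Lypd8 from -0.099 to 0.11. In flox/flox spheroids Ly6e ran from -0.49 to 0.087, Psca from -0.63 to 0.91 and Lypd3 from -0.76 to 0.98. In flox/+ spheroids Ly6a ran from -0.0062 to 0.63, Ly6c1 from -0.082 to 0.60, Ly6e from -0.24 to 0.087 and Psca from -0.46 to 0.76. The 4-OHT by genotype difference ran from -0.082 to 0.64 for Ly6a, -0.38 to 0.17 for Ly6d, -0.44 to 0.13 for Ly6e, -0.97 to 0.75 for Psca and -1.37 to 0.36 for Lypd3. The fetal-adult difference between genotypes ran from -0.43 to 0.54 for Ly6a, -0.075 to 1.07 for Ly6c1 and -0.66 to 0.51 for Ly6d.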

Other observations

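Family genes outside the 7 members also differed in tissue. Ly6g6f fell in homozygous mice in all 4 tissue comparisons, by 2.65 and 4.15 on the log2 scale in Rosa26(CreER) crypts and villi (edgeR adjusted p = 0.0337 and 0.0034), and gave -5.62 in Vil1(CreER) villi (3.01e-05). In Vil1(CreER) crypts it gave -6.53 as a description. All 34 other family genes together had at most 29.86 CPM in heterozygous crypts there, so few reads of Ly6g6f remain in homozygous ones. Ly6g6c rose in homozygous villi, by 2.39 with Rosa26(CreER) (edgeR adjusted p = 0.00229) and 2.52 with Vil1(CreER) (0.0171). Cd59b fell by 6.22 in Rosa26(CreER) villi (edgeR adjusted p = 4.8e-05), and its genotype effect differed from that in crypts by 4.70 (0.0047). Cd59a fell by 2.75 in Vil1(CreER) crypts (edgeR adjusted p = 0.00308).

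2010109I03Rik, a gene of the chromosome 15 group, had a mean of 582 ± 213 CPM (SD, n = 5) in heterozygous Rosa26(CreER) villi and 26.1 ± 17.6 CPM (n = 5) in crypts, and was lower in crypts of both drivers (-4.56, edgeR adjusted p = 7.86e-06, and -5.96, 0.00115).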
